A study of Mus musculus with 128 samples.

Results

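The YAP target genes followed here are 10 of the 40824 genes in the RNA table: Cyr61, Ctgf, Axl, Crim1, Ankrd1, Amotl1, Amotl2, Ajuba, Ptpn14 and Myof. They were taken by name from a list of known YAP targets, with Cyr61 (now Ccn1) and Ctgf (now Ccn2) under the symbols that the table uses, and all 10 were found. YAP is a coactivator that binds DNA through TEAD factors, and the Hippo kinases hold it out of the nucleus; its targets respond to cell density, tension and cell polarity, and in liver it is known for its part in organ size and in bile duct cells. Pard3 encodes PAR3, a scaffold of the apical polarity complex.

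The study measured RNA of single mouse liver cells in 106 libraries of 49 groups, and open chromatin by ATAC-seq in 22 libraries. The groups labelled Pard3HMKO carry Foxa3-Cre and Pard3-fl/fl, those labelled YapHMKO carry Foxa3-Cre and Yap-fl/fl, and a further group carries both floxed genes; Foxa3-Cre acts in endoderm. Their references, Pard3WT, YapWT and Pard3WT YapWT, carry Foxa3-Cre alone, so Cre is shared by both sides, and all are on C57BL/6. They were sampled at E11.5, E13.5, E15.5, E17.5, E19.5, P0 and P14 for Pard3, at E15.5 and E17.5 for Yap, and at E17.5 for both genes together. At E17.5 a second pair of groups used AlfpCre, with and without the floxed Pard3 gene. E15.5 liver cells of the Foxa3-Cre lines were also cultured for 2 days with PD, U0126, TPPB, TPPB with PD, or no agent (control). The labels give PD by these letters only; U0126 is known as an inhibitor of the kinase MEK and TPPB as an activator of protein kinase C. Adult P60 mice, all Pard3-fl/fl, received AAV-Tbg-Cre, which acts in hepatocytes, 7 days before sampling (Pard3HMKO), or are labelled control (Pard3WT); they were sampled on days 0, 2 and 7 after partial hepatectomy (PHx), removal of part of the liver. Wild-type B6C3F1 embryos (C57BL/6 crossed with C3H) covered E11.5 to E19.5 in 18 libraries.

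Some members carry the letters that TEAD factors are known to bind. The promoters of Cyr61 and Ajuba are shown because these genes were called in several comparisons. Those of Ankrd1 and Ptpn14 are shown because peaks at their starts followed the genotype label at E17.5. Each of the 4 is the RefSeq sequence of GRCm38.p6 from 250 bases before the gene start to 50 after it, written 5′ to 3′ along the gene. Capitals mark each match to GGAATG or to its reverse complement CATTCC.

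Ankrd1 promoter, chr19:36119795-36120094, minus strand: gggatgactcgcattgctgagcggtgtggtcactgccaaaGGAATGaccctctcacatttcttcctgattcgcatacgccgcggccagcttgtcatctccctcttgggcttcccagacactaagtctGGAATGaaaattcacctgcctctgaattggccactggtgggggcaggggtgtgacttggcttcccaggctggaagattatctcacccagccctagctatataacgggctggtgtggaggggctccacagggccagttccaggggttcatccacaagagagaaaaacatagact
Ajuba promoter, chr14:54577612-54577911, minus strand: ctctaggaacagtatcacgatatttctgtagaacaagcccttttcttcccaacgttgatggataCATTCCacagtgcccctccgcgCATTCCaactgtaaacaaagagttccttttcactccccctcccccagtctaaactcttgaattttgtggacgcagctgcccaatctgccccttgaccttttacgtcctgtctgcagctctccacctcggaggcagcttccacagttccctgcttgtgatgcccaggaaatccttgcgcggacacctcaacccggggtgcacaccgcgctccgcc
Ptpn14 promoter, chr1:189728018-189728317, plus strand: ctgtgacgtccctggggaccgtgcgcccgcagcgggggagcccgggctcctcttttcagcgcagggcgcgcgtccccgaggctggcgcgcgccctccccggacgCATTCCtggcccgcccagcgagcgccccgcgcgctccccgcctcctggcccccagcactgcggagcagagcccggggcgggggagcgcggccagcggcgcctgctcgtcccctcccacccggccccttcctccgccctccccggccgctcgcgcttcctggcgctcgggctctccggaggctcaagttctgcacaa
Cyr61 promoter, chr3:145649936-145650235, minus strand: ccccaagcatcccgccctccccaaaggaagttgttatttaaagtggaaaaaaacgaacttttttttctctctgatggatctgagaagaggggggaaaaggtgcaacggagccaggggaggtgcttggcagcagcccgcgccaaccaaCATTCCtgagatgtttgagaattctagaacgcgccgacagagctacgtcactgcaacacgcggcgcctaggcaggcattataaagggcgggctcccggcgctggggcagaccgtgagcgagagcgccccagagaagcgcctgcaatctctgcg

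The matches begin 210 and 123 bases before the start in Ankrd1, 186 and 164 bases before it in Ajuba, 146 bases in Ptpn14 and 103 bases in Cyr61. Of the 9 members with a promoter sequence, 7 (77.8%) held a match, against 14.7% of the 32851 promoters in the table. Every printed promoter holds a match, while Amotl1 and Myof held none, and Myof was also called in several comparisons. The share with at least 2 matches was 22.2% of members, against 1.36% of all promoters. The AP-1 motif TGANTCA, searched on both strands, was in 0 of the 9 member promoters and in 7.81% of all promoters. A match describes letters in this window and not binding. No promoter sequence was used for Ctgf.

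Levels are CPM, the reads of a gene per library brought to a common total and scaled by trimmed means (TMM), and are listed by library in replicate order. Changes are log2 fold changes ± standard error, tested across all genes with edgeR's quasi-likelihood test; calls are those with a Benjamini-Hochberg adjusted p under 0.05. Groups hold 2 libraries unless a number is given. A library summed 7 to 133 cells and 4506130 to 86188713 reads. In 2122 of the 4264 cells (49.8%), reads were seen for at least 50% of the markers of another cell type, mostly the erythroid list; 586 cells (13.7%) were so marked without that list. The labels do not tie libraries to separate animals, and the p-values measure spread between libraries, which may be technical. In such sums, fewer cells of a type and less RNA per cell cannot be told apart.

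Yap1 reads marked the Yap deletion at E15.5 but not at E17.5. At E15.5 the YapHMKO livers held 0.187 and 4.27 CPM of Yap1 and the YapWT livers 64.6 and 84.5 CPM (−5.02 ± 0.55, adjusted p = 8.22e-06). In culture Yap1 stood at 0.768 and 4.47 CPM in YapHMKO and 108 and 102 CPM in YapWT cells (−5.33 ± 0.43, adjusted p = 1.84e-07). At E17.5 the libraries labelled YapHMKO held 52.5 and 51.5 CPM, against 31.3 and 35.3 CPM in the YapWT libraries, and those labelled Pard3HMKO YapHMKO held 43.5 and 44.3 CPM, against 28.5 and 33.1 CPM in Pard3WT YapWT. The E17.5 libraries therefore go against their Yap label, and directions drawn from them are those of the label only. No comparison of Pard3HMKO with Pard3WT called Pard3 reads lower (log2 changes from −0.50 to 0.50). The counts are per gene and do not set the floxed exon apart, so they check nothing about the Pard3 deletion.

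The 10 genes covered a wide range of levels. Per length, where the median of the 49 group means is compared, Cyr61 stood highest at 2.72, followed by Ajuba at 0.520, Amotl2 at 0.308, Amotl1 at 0.240 and Myof at 0.169 on the deposited per-length scale. Crim1 stood at 0.0492, Axl at 0.0152, Ctgf at 0.00281, Ptpn14 at 0.00218 and Ankrd1 at 0. Ankrd1 had no read in 47 of 54 embryonic libraries and in all 8 libraries of P0 and P14, and Ctgf none in 41 and 6 of them. In the 8 control cultures, by contrast, Ankrd1 ranged from 1.88 to 355 CPM with a median of 23.5 CPM. The highest group mean by CPM was in the TPPB-treated YapWT culture for 7 of the genes (Cyr61, Ctgf, Axl, Crim1, Ankrd1, Amotl2 and Ajuba), at 655 CPM for Cyr61 and 377 CPM for Ankrd1. On the per-length scale it was there for the same genes but Ajuba.

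In wild-type B6C3F1 liver cells, Myof and Amotl2 had upward slopes over embryonic day, though Myof did not rise steadily. Over the 18 libraries the slope was called for 2 of the 6 members that passed the filter on low counts, both upward. Of all 15662 genes 35.6% were called in either direction, so the count of members is near the share over all genes. Ctgf, Axl, Ankrd1 and Ptpn14 did not pass that filter. Myof, a ferlin of the plasma membrane known from membrane repair, held 1.7 and 1.39 CPM at E11.5. Its levels were 6.57 and 3.33 CPM at E13.5, 2.93 and 3.59 CPM at E14.5 and 0, 1.36 and 2.54 CPM at E15.5. At E16.5 it held 7.26, 11.6 and 11.9 CPM in 3 libraries and at E17.5 33.2 and 29.3 CPM, with 19.3 and 24.6 CPM at E19.5. Its slope was 0.58 ± 0.11 per day (adjusted p = 0.000211). Amotl2, an angiomotin that binds YAP and holds it in the cytoplasm, had 2.44 and 1.16 CPM at E11.5 and 9.42 and 7.6 CPM at E19.5 (0.35 ± 0.08 per day, adjusted p = 0.000935). The groups at both ends of the series did not overlap for either gene, and both calls held without each of the 18 libraries in turn. Cyr61, a secreted matricellular protein, was not called (slope 0.07 ± 0.11, adjusted p = 0.649) and ranged from 9.52 CPM at E12.5 to 114 CPM at E15.5, where the 3 libraries held 114, 70.7 and 56.5 CPM. Ctgf, its relative in the same family, had reads in 1 library only, at 0.0307 CPM, and Ankrd1, a nuclear ankyrin repeat protein, in 1 only, at 0.635 CPM. Yap1 itself rose by 0.11 ± 0.04 per day (adjusted p = 0.0299). Of genes in related lists, 6 of 11 AP-1 and EGR genes rose and none fell, with Fosl2 rising by 0.93 ± 0.18 per day (adjusted p = 0.000237). Of 12 SRF and actin genes 6 fell and none rose.

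**Figure D1:**
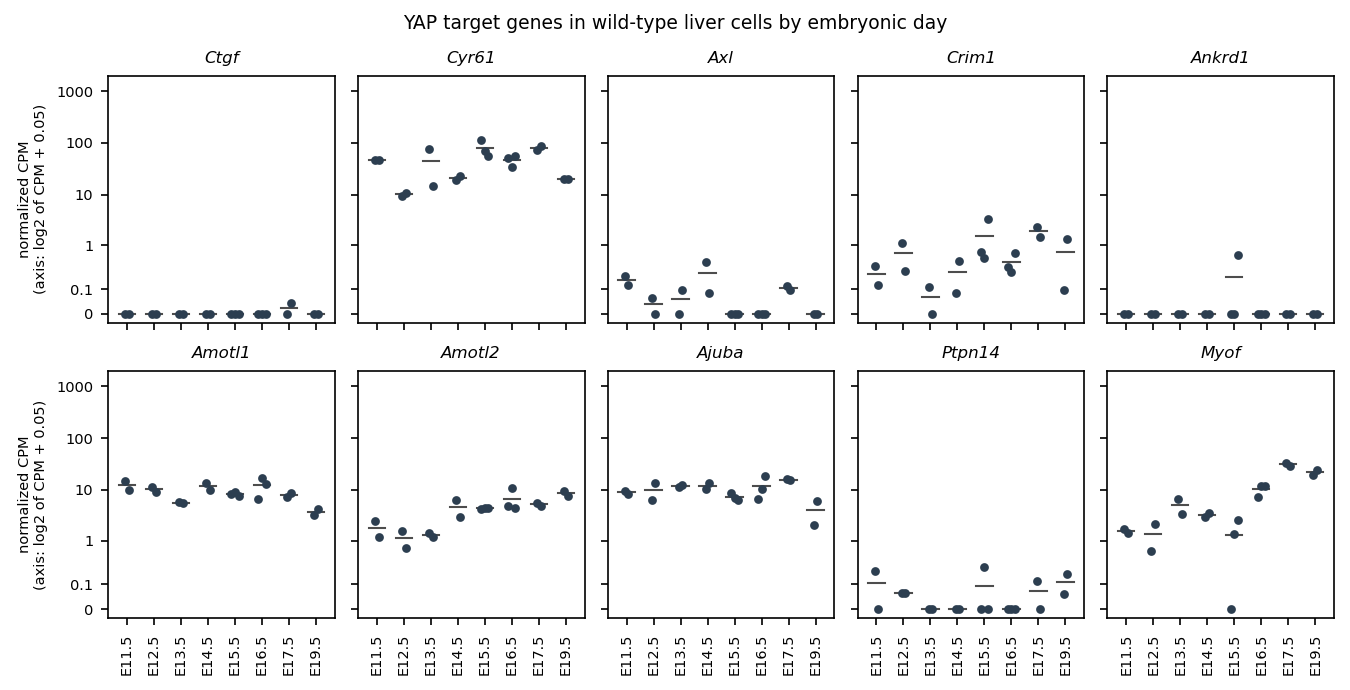
Normalized CPM (log2 axis of CPM + 0.05) of each YAP target gene in the 18 wild-type B6C3F1 libraries by embryonic day; points are libraries and bars group means. Amotl2 is higher at late than at early ages, and Myof is low up to E15.5 and highest at E17.5. Cyr61 moves between 9.52 and 114 CPM, and Ctgf and Ankrd1 sit at 0 in all libraries but 1 each.

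After 2 days of culture a set of the members stood above their E15.5 liver level in each of the 3 lines compared. No member was called lower. Culture, the added 2 days of age and the experiment cannot be told apart in these comparisons. In Pard3WT cells 6 of 10 members rose (25.1% of all genes called in either direction), in YapWT cells 4 of 10 (25.5%), and in YapHMKO cells 7 of 10 (34.1%). The median change of the members was 2.49 in Pard3WT, 1.86 in YapWT and 2.51 in YapHMKO cells, where the median over all genes was 0.09, 0.00 and 0.00. Cyr61 was not called in any of the 3 lines. In YapWT cells it held 65.1 and 124 CPM in culture and 129 and 158 CPM in liver (adjusted p = 0.27). Ptpn14, a phosphatase that acts as a negative regulator of YAP, had 14.7 and 11.8 CPM in cultured Pard3WT cells and no read in either E15.5 Pard3WT liver, at least 109-fold higher against a floor of 3 reads per library (adjusted p = 0.000313). In cultured YapWT cells it held 8.12 and 66 CPM, against 0.0487 and 0.141 CPM in E15.5 YapWT livers (8.61 ± 1.21, adjusted p = 0.000164). In cultured YapHMKO cells it held 11.3 and 8.09 CPM, against 0.0534 and 0.0429 CPM in the livers (7.49 ± 1.23, adjusted p = 0.000354). Ptpn14 thus rose without overlap in all 3 lines, and its call held without each library in turn.

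Ankrd1 and Ajuba were also called in all 3 lines. Ankrd1 held 7.91 and 15.7 CPM in cultured YapHMKO cells, against 0.0534 and 0 CPM in the E15.5 livers. The cultured YapWT cells held 4.14 and 31.3 CPM of it, against 0.179 and 0.0944 CPM in the livers (6.90 ± 1.80, adjusted p = 0.0192). In cultured Pard3WT cells Ankrd1 held 1.88 and 61.5 CPM, against 0.0687 and 0 CPM in livers. The cultured replicates of Ankrd1 lie far apart, and from 43.1% to 81.8% of its reads in each control or TPPB culture came from 1 cell. Ajuba, a LIM protein that binds the Hippo kinase LATS, held 37.4 and 60.7 CPM in cultured Pard3WT cells and 9.58 and 4.38 CPM in Pard3WT livers (2.84 ± 0.54, adjusted p = 0.00121); it was called at 1.53 ± 0.51 in YapWT cells (adjusted p = 0.0401) and at 1.99 ± 0.52 in YapHMKO cells (adjusted p = 0.00789). Ctgf rose in cultured YapHMKO cells, with 1.94 and 1.52 CPM against no read in either liver library, at least 22.2-fold (adjusted p = 0.000999). It rose too in Pard3WT cells, with 0.782 and 1.22 CPM in culture and 1 read in the liver libraries (0 and 0.0528 CPM; adjusted p = 0.0147). Amotl2 was called in Pard3WT (12.2 and 27.5 CPM against 8.21 and 7.71 CPM) and in YapHMKO cells (37.9 and 19.9 CPM against 8.06 and 8.04 CPM; 1.79 ± 0.37, adjusted p = 0.0015). Myof rose in the same pair of lines, to 26.2 and 18 CPM in cultured Pard3WT cells against 3.43 and 3.96 CPM in livers (2.62 ± 0.64, adjusted p = 0.00676). Crim1, a transmembrane protein that binds growth factors, rose in YapWT cells to 13.2 and 18.7 CPM, against 0.195 and 0.66 CPM in livers (5.20 ± 1.46, adjusted p = 0.0182), and in YapHMKO cells to 20.7 and 21.9 CPM, against 0 and 1.76 CPM (4.54 ± 1.402, adjusted p = 0.0225).

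The coactivator Wwtr1 (TAZ), the paralogue of Yap1, was itself called higher in all 3 cultures, at 3.33 ± 0.49 in YapHMKO cells (44.3 and 42.7 CPM against 5.28 and 3.09 CPM; adjusted p = 7.83e-05). Of 18 Hippo and TEAD genes 8 rose and 1 fell in YapHMKO cultures, where 34.1% of all genes were called in either direction. Of 13 other YAP signature genes 9 rose and 2 fell there, and Tgfb2 held 10.1 CPM in culture against 0.0107 CPM in liver. AP-1 and EGR genes went both ways, with 3 higher and 7 lower of 12, among them Jun at 94.2 CPM in culture and 667.8 CPM in liver (−2.87 ± 0.26, adjusted p = 5.28e-07). The scaling bears on these counts. Without TMM, on library totals alone, the median of all genes moved up by 0.99 in Pard3WT, 0.64 in YapWT and 0.79 in YapHMKO cells. Then 8, 6 and 10 members were called, all higher. Calls over all 16684 genes grew too, to 6572, 5359 and 6951, against 4193, 4249 and 5687 with TMM. Leaving out 1 library in turn left 3 to 6, 1 to 3 and 4 to 6 members called; the fewest in Pard3WT cells were without E15.5 liver replicate 1 or culture replicate 2, which carry the calls of Ctgf, Amotl2 and Ankrd1. Biliary markers moved in the same direction: 6 to 7 of 8 had a read in each of these control cultures, and their sum was 74.6 to 484 CPM there. In the E15.5 livers the sum was 10.9 to 17.0 CPM in Pard3WT, 28.6 to 54.2 CPM in YapWT and 24.0 to 48.6 CPM in YapHMKO. Their part in the result was not tested.

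In the Yap comparisons edgeR, with TMM and the filter on low counts, called no member. Without that filter it called 4 in control cultures, 3 of them higher, and 3 under PD, and with the filter but without YapWT PD replicate 1 or 2 it called 2 or 1 under PD. In E15.5 livers 0 of 9 members were called by edgeR or DESeq2 (0.302% of all genes called by edgeR), and none had an unadjusted p under 0.05. The median change of the members was −0.67 there and 0.11 in control cultures, where the median of all genes was 0.00 in both. Cyr61 held 87 and 102 CPM in YapHMKO and 129 and 158 CPM in YapWT livers (95% interval of the log2 change −1.57 to 0.36), and Myof 3.74 and 6.93 CPM against 15.52 and 5.97 CPM (−2.03 to 0.02). The libraries do not overlap for Cyr61, and its interval spans no change. In control cultures 0 of 10 were called by edgeR or DESeq2 (9.17% of all genes), with 2 at an unadjusted p under 0.05. These were Ctgf, at 1.94 and 1.52 CPM in YapHMKO and 0 and 0.212 CPM in YapWT cells (adjusted p = 0.184), and Amotl2, at 37.9 and 19.9 CPM against 14.1 and 13.8 CPM (1.03 ± 0.40, adjusted p = 0.119). Both point upward in the cells without Yap. Cyr61 stood at 157 and 125 CPM in YapHMKO and 65.1 and 124 CPM in YapWT cells (−0.40 to 1.53), and Ankrd1 at 7.91 and 15.7 CPM against 4.14 and 31.3 CPM (−3.74 to 2.58). Under PD, 0 of 10 were called by edgeR (274 genes, 1.64%) and 2 by DESeq2 (782 genes), with 4 at an unadjusted p under 0.05. Myof held 2.12 and 2.62 CPM in YapHMKO cells and 3.79 and 9.84 CPM in YapWT cells (edgeR adjusted p = 0.0852). In the same cultures Tead1, a TEAD factor, was higher in control YapHMKO cells (1.00 ± 0.24, adjusted p = 0.0099).

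At E17.5, where Yap1 reads were not lower, 0 of 9 members were called in the libraries labelled YapHMKO by edgeR or DESeq2, with 0 at an unadjusted p under 0.05 (14.4% of all genes). In the libraries labelled Pard3HMKO YapHMKO, 0 of 9 were called by edgeR (2710 genes, 14.6%) and 3 by DESeq2 (3388 genes), with 4 at an unadjusted p under 0.05. Myof held 7.19 and 8.07 CPM there and 23.4 and 22.1 CPM in Pard3WT YapWT (−1.55 ± 0.54, adjusted p = 0.0505), and Ajuba 7.72 and 10 CPM against 1.956 and 4.78 CPM (1.41 ± 0.52, adjusted p = 0.0676). Under other edgeR settings 0 to 1 members were called in the libraries labelled YapHMKO and 0 to 4 in those labelled Pard3HMKO YapHMKO.

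Axl and Amotl2 were called higher in Pard3HMKO than in Pard3WT control cultures. These were 2 of 10 members (4.9% of all genes called), with 0 to 1 called without 1 library and 1 without marked cells; the median change was 1.45 for the members and 0.01 for all genes. Axl, a receptor tyrosine kinase, held 9.77 and 22 CPM in Pard3HMKO and 0.417 and 0 CPM in Pard3WT cells (6.07 ± 1.59, adjusted p = 0.0336). Amotl2 held 46.1 and 58.6 CPM in Pard3HMKO and 12.2 and 27.5 CPM in Pard3WT cells (1.39 ± 0.40, adjusted p = 0.0458). The libraries separate fully for both genes. Ctgf had 18.6 and 25.5 CPM in Pard3HMKO and 0.782 and 1.22 CPM in Pard3WT cells but missed the threshold (4.46 ± 1.41, adjusted p = 0.0923), with 82.6% and 65.2% of its Pard3HMKO reads in 1 cell of each library. Cyr61 stood at 318 and 510 CPM against 164 and 123 CPM (adjusted p = 0.112), Crim1 at 13 and 7.6 CPM against 3.39 and 1.45 CPM (adjusted p = 0.125), and Ankrd1 at 133 and 355 CPM against 1.88 and 61.5 CPM (adjusted p = 0.433). Myof, at 18.6 and 23.4 CPM against 26.2 and 18 CPM, overlapped between the genotypes.

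DESeq2 called 5 members in this comparison, where it called 1364 genes over all and edgeR 819. The edgeR calls rest on few libraries: leaving out any 1 of the 4 ended the Axl call (largest adjusted p 0.213), and the Amotl2 call was lost without Pard3WT replicate 1 or without either Pard3HMKO replicate (largest 0.498). Of other genes, F3, a clotting receptor of the YAP signature list, held 91.6 CPM in Pard3HMKO and 9.27 CPM in Pard3WT cells (3.28 ± 0.87, adjusted p = 0.0384). Hepatocyte markers summed to 11519 to 11774 CPM in Pard3HMKO and 40832 to 43364 CPM in Pard3WT control cultures, and the 8 biliary markers to 158 to 388 CPM and 74.6 to 167 CPM; their part in the result was not tested.

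**Figure D2:**
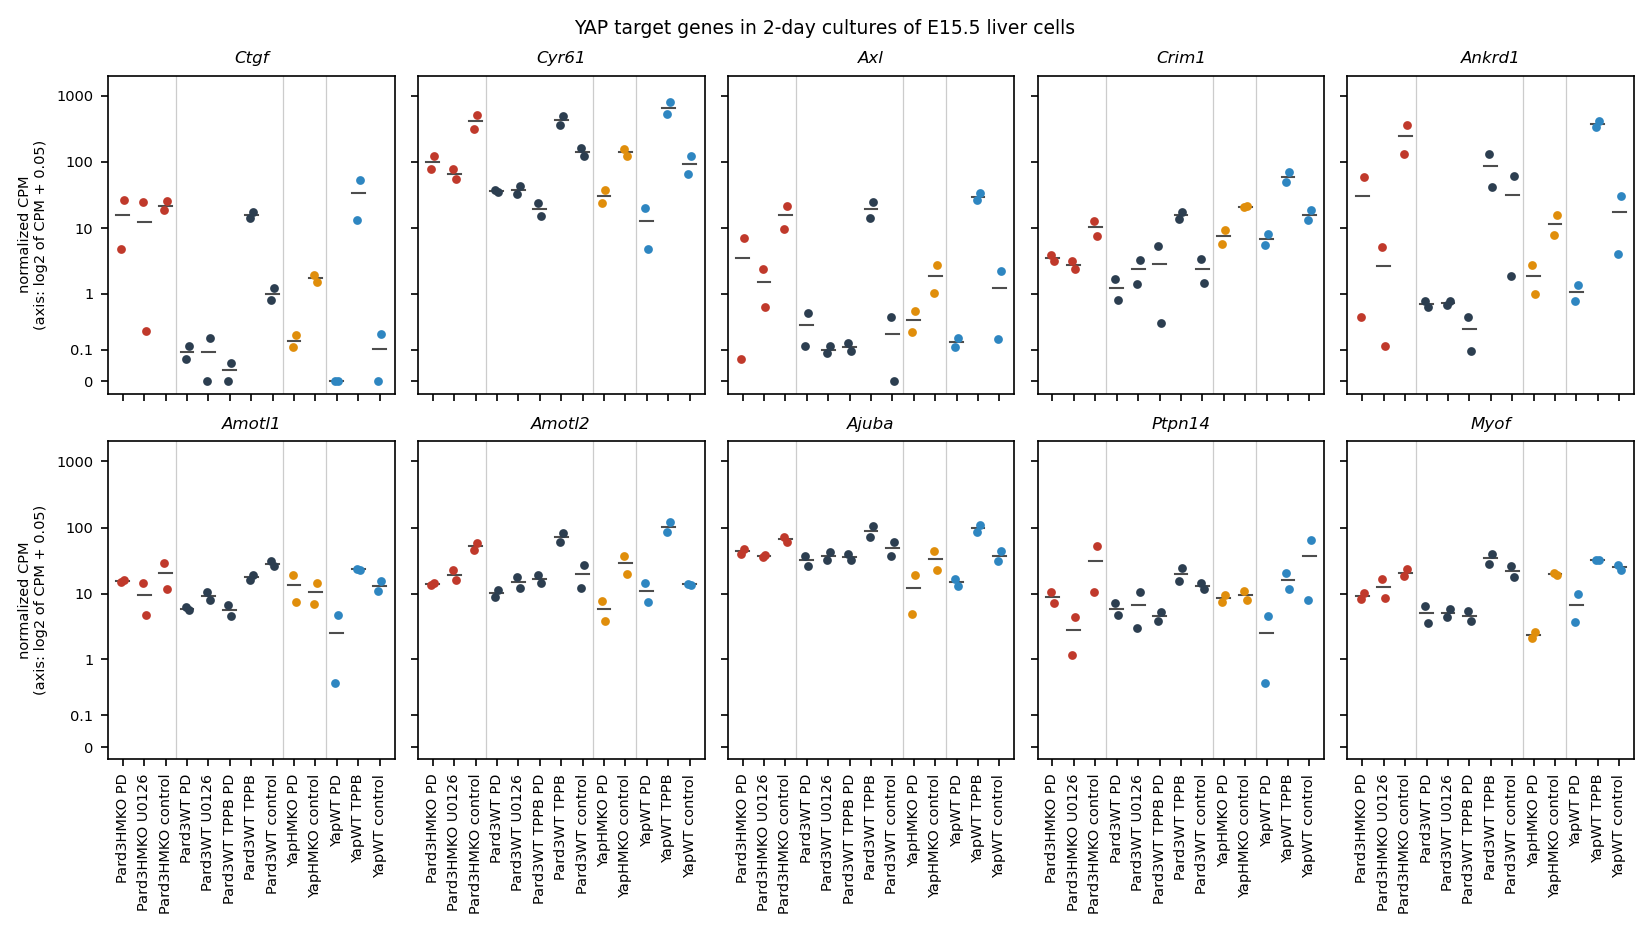
Normalized CPM (log2 axis of CPM + 0.05) of each YAP target gene in the 26 culture libraries, grouped by line and agent; points are libraries and bars group means. In YapWT cells TPPB libraries lie above their controls for Amotl2, Cyr61, Ctgf and Axl, PD libraries lie below their controls for Cyr61 and Myof in all 4 lines, and Ankrd1, Ctgf and Axl span the widest range on this axis.

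PD lowered members in each of the 4 lines, and none was called higher. It called 3 of 10 lower in Pard3WT cells (14.8% of all genes called), 5 in YapWT (17.51%), 2 in Pard3HMKO (14.52%) and 4 in YapHMKO cells (20.0%). The median change was −1.54, −2.64, −1.63 and −2.22, where the median of all genes lay between −0.05 and 0.00. Cyr61 was called in all 4 lines: it held 38.1 and 35.6 CPM with PD and 164 and 123 CPM without in Pard3WT cells (−1.95 ± 0.51, adjusted p = 0.0178). In YapWT cells it held 20.6 and 4.83 CPM with PD and 65.1 and 124 CPM without (−2.86 ± 0.54, adjusted p = 0.00156). In Pard3HMKO cells the values were 77.3 and 123 CPM against 318 and 510 CPM (−1.99 ± 0.51, adjusted p = 0.0145), and in YapHMKO cells 24.5 and 37.2 CPM against 157 and 125 CPM (−2.18 ± 0.52, adjusted p = 0.00691). PD and control libraries of Cyr61 did not overlap in any line.

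Myof was also lowered by PD in 3 of the lines and Amotl2 in 2. Myof held 6.66 and 3.63 CPM against 26.2 and 18 CPM in Pard3WT cells (−2.09 ± 0.42, adjusted p = 0.00137), and 3.79 and 9.84 CPM against 27.5 and 22.7 CPM in YapWT cells (−1.90 ± 0.42, adjusted p = 0.00255). In YapHMKO cells it held 2.12 and 2.62 CPM with PD and 20.7 and 19.2 CPM without (−3.05 ± 0.44, adjusted p = 2.41e-05). Amotl2 was lowered in Pard3HMKO cells, to 13.6 and 14.46 CPM against 46.1 and 58.6 CPM (−1.85 ± 0.40, adjusted p = 0.00262), and in YapHMKO cells, to 7.91 and 3.93 CPM against 37.9 and 19.9 CPM (−2.27 ± 0.42, adjusted p = 0.000398). Amotl1, the other angiomotin, fell in Pard3WT cells to 6.31 and 5.66 CPM, against 30.9 and 26.1 CPM (−2.23 ± 0.70, adjusted p = 0.037), and in YapWT cells to 0.409 and 4.74 CPM, against 11.1 and 15.4 CPM (−2.42 ± 0.74, adjusted p = 0.0273). Ajuba fell in YapWT (−1.33 ± 0.45, adjusted p = 0.0476) and YapHMKO cells (−1.44 ± 0.45, adjusted p = 0.0291), and Ptpn14 in YapWT cells (−3.92 ± 1.11, adjusted p = 0.0221). Ankrd1 was not called in any line, although in Pard3HMKO cells PD replicate 1 held 0.42 CPM and replicate 2 held 60.2 CPM, against 133 and 355 CPM in the controls; 92.4% of the reads of that second PD library lay in 1 cell.

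The PD calls that held without each of the 4 libraries in turn were Myof in Pard3WT and YapHMKO cells, Cyr61 in YapWT cells and Amotl2 in Pard3HMKO and YapHMKO cells. The counts without 1 library ran from 1 to 2 in Pard3WT, 1 to 4 in YapWT, 1 to 2 in Pard3HMKO and 2 to 4 in YapHMKO cells. Amotl1 in Pard3WT and Ajuba in YapWT cells were lost without any of the 4 libraries (largest adjusted p 0.207 and 0.274). Cyr61 was lost in Pard3HMKO cells without control replicate 2 or either PD replicate (largest 0.153), in Pard3WT cells without control replicate 1 or either PD replicate (0.132), and in YapHMKO cells without control replicate 1 or PD replicate 1 (0.0812). Ajuba in YapHMKO cells was lost without the same pair (0.314), Amotl1 and Ptpn14 in YapWT cells without control replicate 2 or PD replicate 1 (0.197 and 0.382), and Myof in YapWT cells without PD replicate 1 (0.0703). No difference of the PD effect between genotypes was called for a member: 0 of 10 for YapHMKO minus YapWT by edgeR (3.71% of all genes; 3 at an unadjusted p under 0.05 and 2 by DESeq2) and 0 of 10 for Pard3HMKO minus Pard3WT (0.808%; 0 at an unadjusted p under 0.05 and 0 by DESeq2).

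U0126 lowered 2 of 10 members in Pard3WT cells (13.1% of all genes called) and 4 of 10 in Pard3HMKO cells (17.8%). Cyr61 held 33.3 and 43 CPM with U0126 and 164 and 123 CPM without in Pard3WT cells (−1.91 ± 0.51, adjusted p = 0.0206), and 78.6 and 55 CPM against 318 and 510 CPM in Pard3HMKO cells (−2.63 ± 0.52, adjusted p = 0.00209). Myof fell in Pard3WT cells to 4.48 and 5.84 CPM, against 26.2 and 18 CPM (−2.10 ± 0.42, adjusted p = 0.0013). U0126 and control libraries did not overlap for either gene. In Pard3HMKO cells Amotl2 fell to 23 and 16 CPM, against 46.1 and 58.6 CPM (−1.42 ± 0.40, adjusted p = 0.014), Ptpn14 to 1.17 and 4.48 CPM, against 10.8 and 52.3 CPM (−3.50 ± 1.08, adjusted p = 0.0327), and Ankrd1 to 5.19 and 0.121 CPM, against 133 and 355 CPM (−6.42 ± 2.00, adjusted p = 0.0399). Ctgf held 24.7 and 0.242 CPM with U0126 and 18.6 and 25.5 CPM without, and 98.0% of the reads of the first U0126 library lay in 1 cell. Myof in Pard3WT and Cyr61 in Pard3HMKO cells held without each library in turn. Cyr61 in Pard3WT and Ankrd1 in Pard3HMKO cells were lost without any of the 4 (largest adjusted p 0.214 and 0.247), Ptpn14 without control replicate 2 or either U0126 replicate (0.357), and Amotl2 without replicate 2 of either group (0.169).

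The ERK feedback genes, whose transcripts are known to follow MEK activity, fell under both agents. With PD 9 of 12 were lower in Pard3WT, 10 in YapWT, 5 in Pard3HMKO and 6 in YapHMKO cells, and with U0126 9 in Pard3WT and 8 in Pard3HMKO cells; none was higher. The PD effect on this list was called weaker in YapHMKO than in YapWT cells for 3 of the 12, with Dusp5 differing by 6.22 ± 0.84 (adjusted p = 0.00016). Phlda1 held 0.391 CPM with PD and 40.0 CPM without in Pard3WT cells (−6.63 ± 0.68, adjusted p = 3.03e-06). Of 12 AP-1 and EGR genes, 8, 6, 5 and 2 were lower with PD in these lines, and 1, 0, 0 and 3 higher. Of 18 Hippo and TEAD genes, 0, 3, 2 and 6 were lower. The shares of all genes called in either direction with PD were 14.8%, 17.51%, 14.52% and 20.0% in these lines. Tead1 held 15.2 CPM with PD and 58.8 CPM without in YapHMKO cells (−1.94 ± 0.25, adjusted p = 5.27e-06). Biliary markers fell too: the 8 genes summed to 27.3 to 42.5 CPM with PD and 74.6 to 167 CPM without in Pard3WT cells, and to 16.6 to 16.8 CPM and 133 to 159 CPM in YapWT cells, with 4 to 5 and 6 to 7 of the 8 genes having a read. In Pard3HMKO cells the sums overlapped, at 124 to 288 CPM and 158 to 388 CPM. Their part in the result was not tested. Without cells marked by a list of another cell type, PD gave 0 calls in Pard3WT and 1 in YapWT cells, and U0126 gave 0 in both lines.

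TPPB raised members in both lines where it was given. In Pard3WT cells 3 of 10 rose (6.78% of all genes called) and in YapWT cells 4 of 10 (10.4%), with median changes of 1.5 and 2.33. DESeq2 called 4 and 7 members, and over all 1638 and 2371 genes, where edgeR called 1134 and 1745. Amotl2 held 60.1 and 81.6 CPM with TPPB and 12.2 and 27.5 CPM without in Pard3WT cells (1.82 ± 0.40, adjusted p = 0.00534), and 84.6 and 121 CPM against 14.1 and 13.8 CPM in YapWT cells (2.85 ± 0.42, adjusted p = 6.32e-05). Axl held 14.2 and 24.6 CPM against 0.417 and 0 CPM in Pard3WT cells (6.34 ± 1.60, adjusted p = 0.0193) and 26.7 and 33.6 CPM against 0.17 and 2.27 CPM in YapWT cells (4.62 ± 1.42, adjusted p = 0.0453). Crim1 rose in Pard3WT cells, to 14.1 and 17.8 CPM against 3.39 and 1.45 CPM (2.68 ± 0.74, adjusted p = 0.0314). In YapWT cells Cyr61 rose to 524 and 786 CPM, against 65.1 and 124 CPM (2.76 ± 0.52, adjusted p = 0.00252). Ctgf rose there to 13.4 and 54.1 CPM, against 0 and 0.212 CPM from 3 reads (adjusted p = 0.00693). Ankrd1 had its highest levels in this group, 337 and 417 CPM against 4.14 and 31.3 CPM, but was not called (adjusted p = 0.16). Only the Amotl2 call in YapWT cells held without each of the 4 libraries; without 1 library 0 to 2 calls were left in Pard3WT and 1 to 4 in YapWT cells. Crim1 in Pard3WT cells was lost without any of the 4 (largest adjusted p 0.253), Axl there without TPPB replicate 2 or either control (0.165), Amotl2 without control replicate 1 or TPPB replicate 2 (0.145). In YapWT cells Ctgf and Cyr61 were lost without control replicate 1 (0.11 and 0.0619) and Axl also without either TPPB replicate (0.279).

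PD given with TPPB lowered 8 of 10 members relative to TPPB alone in Pard3WT cells (26.1% of all genes called), all but Amotl1 and Ptpn14. The median change was −2.65 for the members and −0.07 for all genes. DESeq2 called all 10, and over all 5099 genes, where edgeR called 4364. Cyr61 held 23.9 and 15.6 CPM with both agents and 360 and 495 CPM with TPPB alone (−4.40 ± 0.57, adjusted p = 2.77e-05). Myof held 5.46 and 3.91 CPM against 28.6 and 40.7 CPM (−2.85 ± 0.43, adjusted p = 2.71e-05). Amotl2 held 19.1 and 14.47 CPM against 60.1 and 81.6 CPM (−2.04 ± 0.41, adjusted p = 0.000589). For these 3 genes the libraries with both agents lay below those with TPPB alone. Axl fell to 0.138 and 0.093 CPM, against 14.2 and 24.6 CPM (−7.32 ± 1.72, adjusted p = 0.00367). Ankrd1 fell to 0.414 and 0.093 CPM, against 130 and 42 CPM (−8.51 ± 2.52, adjusted p = 0.0227), and Ctgf to 1 read in both libraries, against 14.52 and 17.7 CPM (adjusted p = 0.00363). Crim1 (−2.45 ± 0.73, adjusted p = 0.0173) and Ajuba (−1.23 ± 0.44, adjusted p = 0.0451) fell as well. The calls of Cyr61, Myof and Amotl2 held without each library, and 3 to 6 members were called without 1 library. Axl was lost without TPPB PD replicate 2 (adjusted p = 0.0649), Ctgf without either TPPB PD replicate (largest 0.0525), Crim1 without replicate 2 of either group (0.103), Ankrd1 without TPPB replicate 1 or either TPPB PD replicate (0.169), and Ajuba without any of the 4 (0.258). Against PD alone, PD with TPPB gave 0 of 10 members called by edgeR (0.0% of all genes called, with 647 at an unadjusted p under 0.05) and 0 by DESeq2, with 0 members at an unadjusted p under 0.05. The 95% intervals were −1.90 to 0.09 for Cyr61 and −0.96 to 0.67 for Myof. Of 12 ERK feedback genes 11 fell with both agents relative to TPPB alone, and Wwtr1 fell as well, to 10.5 CPM against 41.4 CPM (−1.94 ± 0.37, adjusted p = 0.000415). Cells with reads for at least 50% of the biliary markers made up 54.2% to 66.7% of the TPPB libraries and 0% to 15.8% of those with PD or U0126; their part in the result was not tested.

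In vivo the members called between Pard3HMKO and Pard3WT livers differed by age, as did the share of all genes called. Whether the effect differed between E15.5 and E17.5 was not tested. Up to E15.5 none of 9 was called: 0 at E11.5 (0.0754% of all genes called; 1 member at an unadjusted p under 0.05, 0 by DESeq2), 0 at E13.5 (0.0% of all genes, with 665 genes at an unadjusted p under 0.05; 0 members at that level and 0 by DESeq2) and 0 at E15.5 (0.237%; 1 and 0). At E17.5 3 of 9 were called (14.9% of all genes), Amotl1 and Ajuba higher and Cyr61 lower. Amotl1 held 25.7 and 12 CPM in Pard3HMKO and 0.802 and 5.61 CPM in Pard3WT livers (2.54 ± 0.67, adjusted p = 0.00812). Ajuba held 9.41 and 10.7 CPM against 2.21 and 3.85 CPM (1.74 ± 0.53, adjusted p = 0.0197), and Cyr61 27.4 and 20.8 CPM against 75.3 and 71.6 CPM (−1.59 ± 0.52, adjusted p = 0.0385). All 3 separate the genotypes without overlap. Amotl1 was lost without Pard3WT or Pard3HMKO replicate 1 (largest adjusted p 0.127), Ajuba without Pard3WT replicate 1 or Pard3HMKO replicate 2 (0.205), and Cyr61 without any of the 4 (0.274); no member was called without Pard3WT replicate 1. With AlfpCre at E17.5 1 of 9 was called (5.28%): Myof held 10.3 and 12 CPM in Pard3HMKO and 60.7 and 59.6 CPM in Pard3WT livers (−2.42 ± 0.54, adjusted p = 0.00397), a call lost without either Pard3HMKO replicate (largest 0.0776). With Foxa3-Cre Myof held 10.5 and 9.62 CPM against 23.4 and 26.3 CPM at that age and was not called (adjusted p = 0.109). Without cells marked by a list of another cell type, 0 of 9 members were called in either E17.5 comparison.

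At E19.5 2 of 9 were called lower (6.95% of all genes). Myof held 11.4 and 8.88 CPM in Pard3HMKO and 60.6 and 63.8 CPM in Pard3WT livers (−2.58 ± 0.54, adjusted p = 0.00197), and Cyr61 18.8 and 35.3 CPM against 136 and 118 CPM (−2.20 ± 0.52, adjusted p = 0.00841). Without marked cells 1 member was called. Myof was lost without Pard3HMKO replicate 2 (adjusted p = 0.0618) and Cyr61 without replicate 1 of either genotype (largest 0.182). At P0 5 of 9 were called (21.8%). Amotl1 held 17.2 and 13.2 CPM in Pard3HMKO and 3.57 and 2.24 CPM in Pard3WT livers (2.43 ± 0.67, adjusted p = 0.00767), and Myof 3.19 and 6.04 CPM against 1.9 and 1.09 CPM (1.66 ± 0.57, adjusted p = 0.0345). Ajuba was lower, at 6.71 and 8.34 CPM against 25.6 and 25.1 CPM (−1.71 ± 0.51, adjusted p = 0.0135), as were Cyr61, at 20.6 and 4.95 CPM against 49.7 and 41.9 CPM (−1.78 ± 0.52, adjusted p = 0.0152), and Amotl2, at 3.79 and 5.44 CPM against 15.4 and 13.54 CPM (−1.60 ± 0.56, adjusted p = 0.0364). All 5 separate the genotypes. Without 1 library 1 to 3 of the P0 calls were left, the fewest without Pard3HMKO replicate 2; Amotl2 was lost without any of the 4 (largest adjusted p 0.24), Myof without any but Pard3HMKO replicate 1 (0.322), Ajuba without any but Pard3WT replicate 2 (0.122), Cyr61 without Pard3HMKO replicate 2 or Pard3WT replicate 1 (0.224) and Amotl1 without Pard3WT replicate 2 (0.111).

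At P14 2 of 9 were called, both higher (16.7% of all genes). Myof held 3.28 and 3.14 CPM in Pard3HMKO and 0.28 and 0.11 CPM in Pard3WT livers (3.98 ± 0.77, adjusted p = 0.000263), from 129 and 8 reads; this call held without each library. Cyr61 held 7.7 and 8.19 CPM against 2.34 and 1.37 CPM (2.08 ± 0.63, adjusted p = 0.0226) and was lost without any of the 4 (largest adjusted p 0.206). Yap1 itself held 51.9 and 50.2 CPM in Pard3HMKO and 15.6 and 24.6 CPM in Pard3WT livers (1.35 ± 0.47, adjusted p = 0.0482). Of the P14 Pard3HMKO cells 85.7% and 91.7% had reads for at least 50% of the macrophage markers, against 8.9% and 14.0% of Pard3WT cells, while the summed level of these 11 markers was 61.4 to 90.6 CPM in Pard3HMKO and 104 to 219 CPM in Pard3WT livers, all 11 with reads in each library. Reads for at least 50% of the endothelial markers were seen in 37.1% and 33.3% of Pard3HMKO and 1.8% and 3.5% of Pard3WT cells. Without cells marked by any list, 0 of 9 members were called at P14; when cells marked by the erythroid list alone were kept, 1 was called and the Cyr61 change had the opposite sign (−2.81, adjusted p = 0.349).

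**Figure D3:**
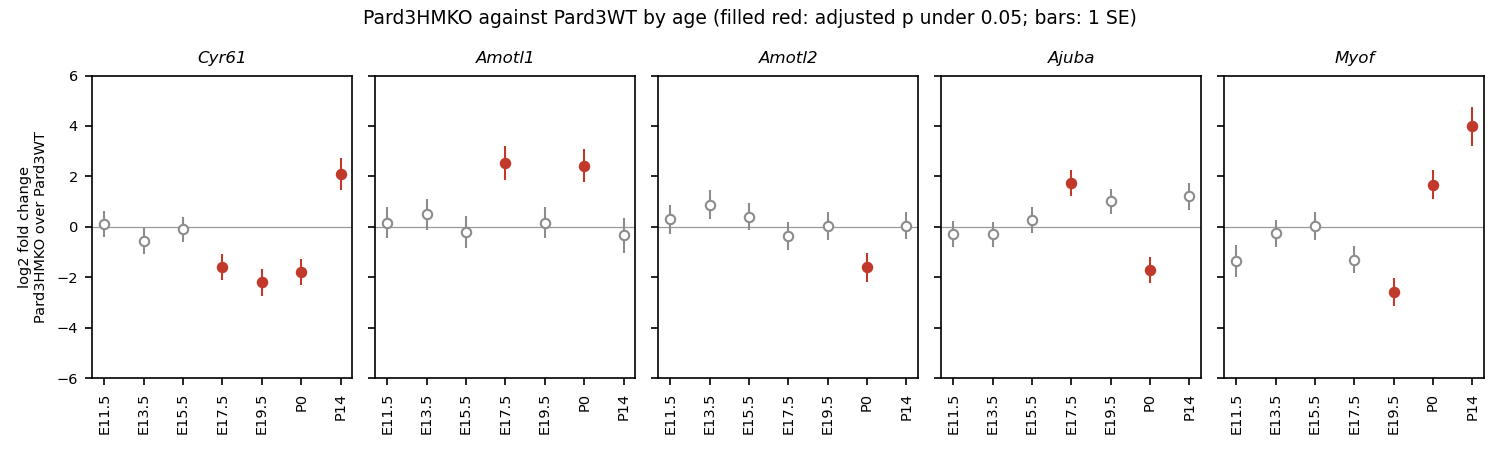
Log2 fold change of Pard3HMKO over Pard3WT livers (Foxa3-Cre) by age for the 5 YAP target genes called at 1 or more ages; points are estimates from edgeR, bars 1 SE, and filled points have an adjusted p under 0.05. Myof and Cyr61 lie below 0 at E19.5 and above it at P14, and Ajuba is above 0 at E17.5 and below it at P0.

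The change between ages was tested directly in 3 comparisons added after the data were seen. From E17.5 to P0 the Pard3HMKO effect moved for 2 of 9 members (12.4% of all genes): Ajuba by −3.44 ± 0.73 (adjusted p = 0.00103) and Myof by 2.95 ± 0.78 (adjusted p = 0.00914). From E19.5 to P0, with the same P0 libraries, 2 moved (10.2%), Ajuba by −2.72 ± 0.72 (adjusted p = 0.00976) and Myof by 4.24 ± 0.79 (adjusted p = 0.000253). From P0 to P14 3 moved (15.6%): Cyr61 by 3.86 ± 0.82 (adjusted p = 0.00144), Ajuba by 2.92 ± 0.74 (adjusted p = 0.00474) and Amotl1 by −2.76 ± 0.96 (adjusted p = 0.049). Ajuba from E17.5, Myof from E19.5 and Cyr61 from P0 held without each of the 8 libraries. Myof from E17.5 was lost without replicate 2 of either P0 group (largest adjusted p 0.0734), Ajuba from E19.5 without replicate 1 of either E19.5 group or P0 Pard3HMKO replicate 1 (0.0557), and Ajuba from P0 to P14 without P14 Pard3WT replicate 2 (0.052). Amotl1 held only without replicate 2 of either P14 group. When marked cells were left out but those marked by the erythroid list alone were kept, 1 member was called from E17.5 to P0 and 1 from P0 to P14, and the Cyr61 difference from P0 to P14 turned to −1.14 (adjusted p = 0.926).

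The levels in Pard3WT livers moved sharply around birth. At P0 against E19.5 3 of 9 members were called (14.4% of all genes): Myof was down to 1.9 and 1.09 CPM at P0, against 60.6 and 63.8 CPM at E19.5 (−5.37 ± 0.63, adjusted p = 8.99e-08). Amotl1 was down to 3.57 and 2.24 CPM, against 15 and 13.54 CPM (−2.29 ± 0.66, adjusted p = 0.0173), and Ajuba was up at 25.6 and 25.1 CPM, against 7.72 and 9.04 CPM (1.60 ± 0.51, adjusted p = 0.0284). The Myof call held without each library, while those of Amotl1 and Ajuba were lost without any of the 4 (largest adjusted p 0.192 and 0.198). At P14 against P0 3 of 9 were called, all lower (19.4%). Cyr61 held 2.34 and 1.37 CPM at P14 and 49.7 and 41.9 CPM at P0 (−4.58 ± 0.63, adjusted p = 4.74e-06), and Ajuba 3.41 and 0.824 CPM against 25.6 and 25.1 CPM (−3.55 ± 0.56, adjusted p = 8.37e-06); both held without each library. Myof fell again (−2.85 ± 0.79, adjusted p = 0.00838), a call lost without P0 replicate 1 or P14 replicate 2 (largest adjusted p 0.126). These comparisons share the Pard3WT libraries with the genotype comparisons above.

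Of 11 AP-1 and EGR genes tested, 6 were lower in Pard3HMKO livers at E17.5, 7 at E19.5 and 8 at P0, with none higher, and 8 were higher with none lower at P14. The shares of all genes called at these ages were 14.9%, 6.95%, 21.8% and 16.7%. Fos held 18.5 CPM in Pard3HMKO and 225.4 CPM in Pard3WT livers at P0 (−3.56 ± 0.38, adjusted p = 5.50e-08), and Jun 112.8 and 412.5 CPM at E19.5 (−1.83 ± 0.21, adjusted p = 1.22e-07). Of 14 SRF and actin genes 7 rose and 1 fell at P14. Between the genotypes the scaling also differed. On library totals alone the median of all genes in Pard3HMKO moved up by 0.63 at E17.5, 0.26 at P0, 0.24 at E19.5 and 0.35 with AlfpCre. The E17.5 calls were then 2 higher and 0 lower and the P0 calls 2 higher and 0 lower, so that lower Cyr61 at these ages and lower Ajuba and Amotl2 at P0 were not called on library totals, while edgeR with RLE factors and DESeq2 called them as with TMM. Over all genes 5150 were called on library totals at E17.5 and 5163 at P0, against 2776 and 4050 with TMM. At E19.5 and with AlfpCre the counts of members did not change. At E17.5 stellate and fibroblast markers summed to 111 to 127 CPM in Pard3HMKO and 30.3 to 32.6 CPM in Pard3WT livers, and hepatocyte markers to 149483 to 181078 CPM and 235413 to 236948 CPM; at P0 96.7% to 100% of cells of both genotypes were marked by the erythroid list. Their part in the result was not tested.

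In adult Pard3HMKO livers Crim1, Cyr61 and Amotl2 were called lower on day 2 after hepatectomy than on day 0. These were 3 of 10 members (18.9% of all genes called), and whether the day 2 change differed between genotypes was not tested. Crim1 held 4.45 and 5.31 CPM on day 2 and 19.8 and 12.2 CPM on day 0 (−1.66 ± 0.46, adjusted p = 0.0139), Cyr61 2.1 and 3.64 CPM against 20.4 and 13.47 CPM (−2.51 ± 0.77, adjusted p = 0.0251), and Amotl2 8.13 and 7.53 CPM against 20.6 and 15.7 CPM (−1.16 ± 0.36, adjusted p = 0.0292). The days do not overlap for these genes. Amotl2 was lost without any of the 4 libraries (largest adjusted p 0.263), and Crim1 and Cyr61 without day 0 replicate 1 or either day 2 replicate (0.198 and 0.216). Without marked cells 1 member was called. In Pard3WT mice 0 of 10 were called on day 2 (15.7% of all genes; 1 at an unadjusted p under 0.05 and 1 by DESeq2), where Ajuba held 9.22 and 17.53 CPM, against 3.51 and 0.904 CPM on day 0 (adjusted p = 0.127), and Cyr61 0.243 and 7.34 CPM against 6.09 and 8.98 CPM. Day 2 replicate 1 summed 7 cells. Without that library alone 0 members were called, without all adult libraries under 15 cells 2 were called higher, and without marked cells likewise 2. Yap1 rose in the same comparison, to 60.9 and 67 CPM against 39.2 and 36.3 CPM (0.82 ± 0.21, adjusted p = 0.00975).

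No member was called on day 7 or between the genotypes by edgeR with TMM and the filter on low counts. Without that filter 2 were called lower on day 7 in Pard3WT and 1 in Pard3HMKO mice. Between the genotypes it was then 1 lower on day 2 and 1 higher on day 7. With the filter, day 7 against day 0 gave 0 of 10 in Pard3HMKO (3.75% of all genes; 2 at an unadjusted p under 0.05, 1 by DESeq2) and 0 of 10 in Pard3WT mice (0.0% of all genes, with 633 at an unadjusted p under 0.05 and 24 called by DESeq2; 3 members at an unadjusted p under 0.05, 0 by DESeq2). Pard3HMKO against Pard3WT gave 0 of 10 on day 0 (0.0%, with 994 genes at an unadjusted p under 0.05 and 178 called by DESeq2; 0 members at either), 0 on day 2 (3.18%; 2 and 1) and 0 on day 7 (5.52%; 2 and 1). Over the 6 Pard3HMKO libraries of day 7 Cyr61 ran from 2.29 to 8.99 CPM with a median of 6.06 CPM, and over the 4 Pard3WT libraries it was 4.3, 9.04, 6.17 and 13.7 CPM. Axl ran from 1.03 to 2.77 CPM in the Pard3HMKO libraries and was 0.532, 0.536, 0.0942 and 0.369 CPM in Pard3WT, with no overlap but no call (2.16 ± 0.74, adjusted p = 0.094). Axl is also a gene of macrophages, and in Pard3HMKO replicates 3 and 4 of day 7, with 12 and 9 cells, 100% of cells had reads for at least 50% of the macrophage markers; their part in the result was not tested.

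**Figure D4:**
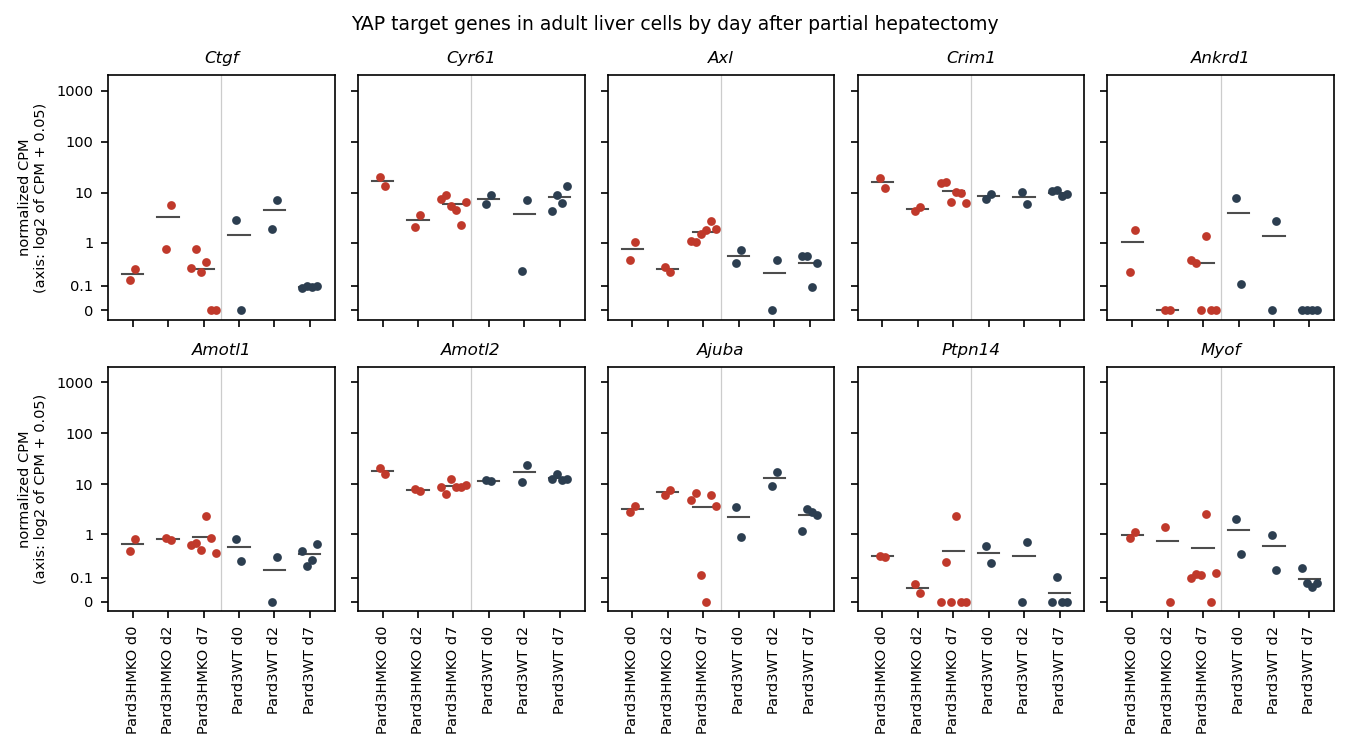
Normalized CPM (log2 axis of CPM + 0.05) of each YAP target gene in the 18 adult libraries by genotype and day after hepatectomy; points are libraries and bars group means. Cyr61, Crim1 and Amotl2 are lower on day 2 than on day 0 in Pard3HMKO mice, and Ankrd1 and Ptpn14 are near 0 in most libraries.

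Chromatin was read at the same genes. The 22 ATAC libraries held 782380 peaks in 98399 merged regions, of which 89 lay within 10 kb of a member. A region was counted as differing when every library of 1 group and none of the other had a peak. At E17.5 8 of 59 member regions differed between Pard3HMKO and Pard3WT (8.33% of all regions), 7 gained and 1 lost, and 5 of 58 between the libraries labelled YapHMKO and YapWT (7.2%), all gained. These are counts without a test.

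The starts of Ankrd1 and Ptpn14, whose promoters are printed above, were among the gained regions in both lines. The Ankrd1 region at chr19:36119660-36120410 (mm10), over the gene start and both GGAATG matches, had a peak in 3 of 3 Pard3HMKO libraries, with the authors' scores of 269.46, 238.6 and 239.82, and in 0 of 3 Pard3WT libraries. It had one in 3 of 3 libraries labelled YapHMKO (212.98, 193.55 and 181.29) and in 0 of 3 YapWT libraries. Ankrd1 reads were 0 in all of the E17.5 Foxa3-Cre RNA libraries of these 4 groups, so the peak stood without a detectable transcript at this depth. The Ptpn14 region at chr1:189727224-189728668 likewise had a peak in 3 of 3, 0 of 3, 3 of 3 and 0 of 3 of these libraries, while Ptpn14 RNA stayed at or under 0.41 CPM. A region upstream of Ankrd1, at −9217 bases from its start (chr19:36129061-36130119) followed the same pattern, as did one within Myof at chr19:38025017-38025907. Pard3HMKO libraries also gained regions within Crim1 (chr17:78218481-78218917 and chr17:78261661-78262099) and Ajuba (chr14:54572556-54573705) and lost one downstream of Amotl2 (chr9:102735708-102736549). The regions that follow both labels include the ATAC libraries labelled YapHMKO, whose Yap state is not known. Yap1 RNA at E17.5, which went against the Yap label, was read in separate libraries that the labels do not tie to these.

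In culture both starts had peaks in control cells and few or none with PD. At the Ankrd1 start 2 of 2 control, 2 of 2 TPPB and 0 of 2 PD libraries of Pard3WT cells had a peak, and 2 of 2 control and 0 of 2 PD libraries of Pard3HMKO cells. At the Ptpn14 start 0 of 2 PD and 2 of 2 control libraries had one in Pard3WT cells, and 1 of 2 (score 53.43) and 2 of 2 in Pard3HMKO cells. Over all member regions PD differed from control at 14 of 43 in Pard3WT cells (22.8% of all regions), 2 gained and 12 lost, and at 16 of 46 in Pard3HMKO cells (15.4%), 3 gained and 13 lost. Regions gained with PD in both lines lay within Amotl2 (chr9:102723824-102724734) and upstream of Ajuba, at −4788 bases from its start (chr14:54582449-54583036). A region over Ctgf (chr10:24595106-24596153) had a peak in 0 of 2 PD and 2 of 2 control libraries of Pard3WT cells. TPPB differed from control at 9 of 55 (17.0%), 4 gained and 5 lost, and Pard3HMKO from Pard3WT control cultures at 11 of 52 (14.0%), 6 gained and 5 lost. These 2 comparisons share their control libraries. The region upstream of Amotl2, at −1649 bases from its start (chr9:102714736-102716155) had a peak in 2 of 2 Pard3HMKO control, 2 of 2 Pard3WT TPPB and 0 of 2 Pard3WT control libraries. The starts of Cyr61, Amotl1 and Amotl2 had a peak in 21, 21 and 22 of the 22 libraries, and that of Axl in 3. The Amotl1 start is that of its promoter sequence, which lies inside the gene, whose 5′ end is at chr9:14662974. The libraries held 24270 to 45898 peaks each, and the part of this in the counts was not tested.

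**Figure D5:**
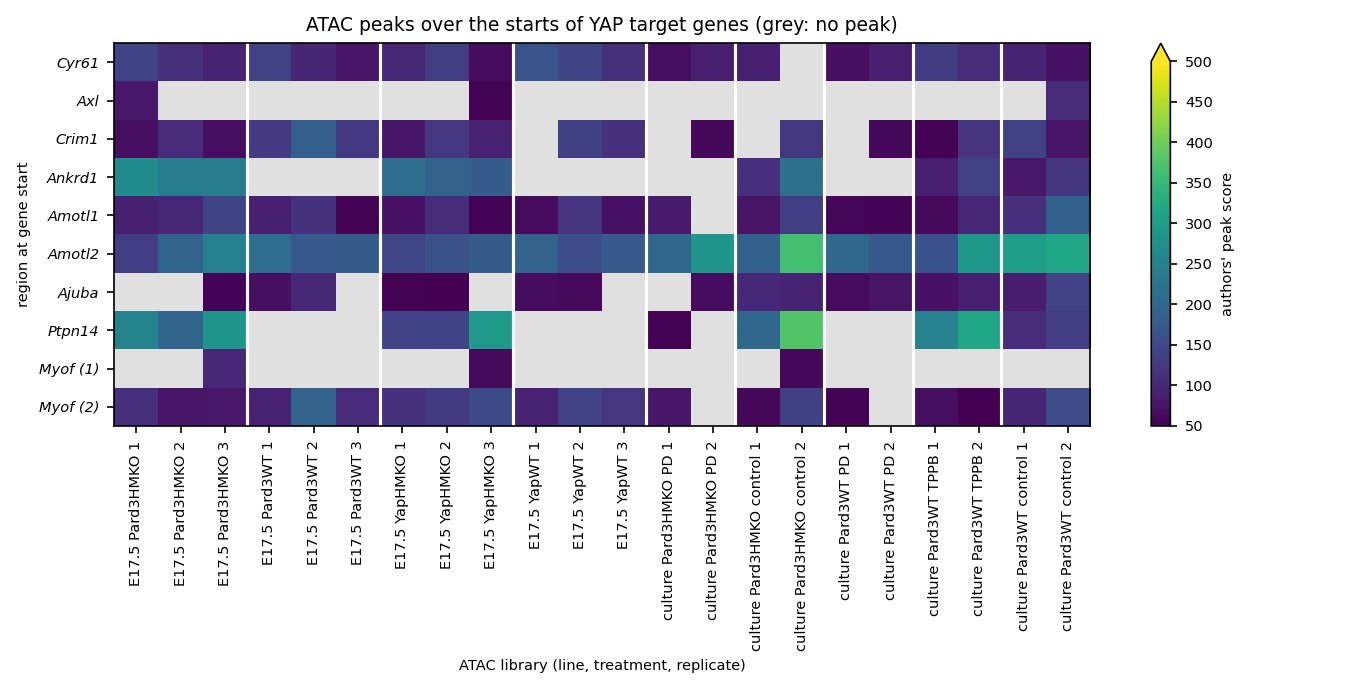
The authors' peak score (colour, 50 to 500; grey, no peak) at the start of each YAP target gene with such a region, in the 22 ATAC libraries by line, treatment and replicate; Myof has 2 such regions. Ankrd1 and Ptpn14 are grey in every E17.5 Pard3WT and YapWT library and coloured in every Pard3HMKO and YapHMKO library of that age, whereas Amotl2 is coloured in all 22. The Amotl1 row is at the start of its promoter sequence, inside the gene.

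The members did not move as 1 unit. Over the 49 RNA groups, Pearson correlations of log levels between members ran from −0.30 (Amotl1 with Crim1) to 0.85 (Ankrd1 with Ctgf), a description across groups that share lines and culture. Ankrd1 also followed Ptpn14 (0.85) and Axl (0.78), and Cyr61 followed Myof (0.72). Among the 9483 genes with a mean of at least 5 CPM over the groups, the patterns most like that of Ctgf were Anxa3 (r = 0.87), Ccl2 (0.83) and Tinagl1 (0.815). For Cyr61 they were Ppp1r15a (0.84), Ptrf (0.82) and Tuft1 (0.81), and for Ankrd1 Fgd3 (0.93), Anxa3 (0.93) and Tinagl1 (0.92), each over 49 groups.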

How the data were processed

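RNA of 4264 single mouse liver cells in 106 libraries and ATAC-seq peaks of 22 libraries were used. The submitters' processing notes list, for RNA, HISAT2 2.1.0, Trimmomatic 0.39, FastQC 0.11.9 and the builds GRCm38 and mm10. For ATAC they list MACS 1.4.2, HOMER, Bowtie2 2.2.5, Trimmomatic 0.38, FastQC, SAMtools 1.3.1 and the build mm10. The counting tool and annotation were not given in the sources used here. Per the labels' protocols, RNA cells were sorted with an EpCAM antibody from somite-stage endoderm and gut, a text that does not match the liver ages of these samples, so how these cells were selected is uncertain. Reads per gene and cell, without normalization, make up the deposited counts. A second deposited table, used as a score, is scaled by the authors per gene length and was used only to compare levels between genes. The deposited peak score is the peak caller's own, with peaks called per library.

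Counts were summed per library, leaving out 92 spike-in entries (126 reads); the median cell had 622917 reads and 7548.5 genes with a read. No doublet caller was run. No cell's counts were identical to another's. Tests on the sums used R 4.3.3 and edgeR 4.0.16 (filterByExpr by group, TMM, robust quasi-likelihood fit), in 5 fits: wild-type embryos (18 libraries), floxed lines in vivo (44), cultures (26), cultures with E15.5 livers (16) and adults (18). Adjusted p-values cover all genes of a fit within a comparison. The filter left out Ankrd1 in the floxed lines. Where a group had no read, folds are bounds against 3 reads per library, which cover counting error only. Replicate numbers did not pair libraries (correlations of deviations −0.054 to 0.084). Alternatives included DESeq2 1.42.0, other scalings and filters, and leaving out libraries or cells. ATAC peaks were merged over libraries, and regions within 10 kb of a member were compared by presence.

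The members and gene lists were chosen with earlier results of these data known. Named genes are all members, Yap1, Wwtr1 and Pard3, up to 3 called genes of smallest adjusted p per list and comparison, and the 3 genes most correlated with Ctgf, Cyr61 and Ankrd1. The scripts were tested on simulated data.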

Additional observations from a re-analysis of the deposited data

Results flagged for a closer look

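In 19 sets of 4 or more libraries (a gene in a group) examined for a library far from the rest, chance alone would set apart about 1 in 20. That rate is for normally spread values and need not hold for levels near 0. On day 7 after hepatectomy, replicate 4 of the Pard3HMKO mice, a library of 9 cells, stood apart for 4 genes, with 1.397 CPM of Ankrd1 (group median 0.186 CPM), 2.40 CPM of Amotl1 (0.624 CPM), 2.60 CPM of Myof (0.120 CPM) and 2.40 CPM of Ptpn14 (0 CPM). In the Pard3WT mice of that day 1 library stood apart for Myof at 0.177 CPM (median 0.067 CPM) and 1 for Ptpn14 at 0.1004 CPM (median 0 CPM). These values rest on 4 and 3 reads.

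The Pard3HMKO effect differed between ages in 7 cases by a test of the difference itself with edgeR. The 3 comparisons were added after the data were seen and share the P0 libraries. Between P0 and E17.5, where 12.4% of all genes were called, the effect differed by −3.44 for Ajuba (adjusted p = 0.00103) and by 2.95 for Myof (adjusted p = 0.00914). Between P0 and E19.5 (10.2% of all genes) it differed by −2.72 for Ajuba (adjusted p = 0.00976) and by 4.24 for Myof (adjusted p = 0.000253). Between P14 and P0 (15.6% of all genes) it differed by −2.76 for Amotl1 (adjusted p = 0.049), by 2.92 for Ajuba (adjusted p = 0.00474) and by 3.86 for Cyr61 (adjusted p = 0.00144). Only Ajuba between P0 and E17.5, Myof between P0 and E19.5 and Cyr61 between P14 and P0 held without each of the 8 libraries. The Cyr61 difference turned to −1.14 (adjusted p = 0.926) without cells holding markers of another type, the erythroid list not used.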

How the results depend on the processing

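Counts of called members are given where they moved by over 1.5 times; the causes were not tested. With no filter on low counts 19 of 42 moved: 4 for Pard3HMKO YapHMKO at E17.5, 4 for culture YapHMKO, 3 for YapHMKO with PD, 6 for culture Pard3HMKO, 5, 5 and 7 for PD in Pard3WT, Pard3HMKO and YapHMKO, 5 and 7 for U0126 in Pard3WT and Pard3HMKO, 7 and 7 for TPPB in Pard3WT and YapWT, 1 for TPPB with PD against PD, 4 and 1 for the PD effect by Yap and Pard3, and 1, 2, 1, 1 and 1 in adults (Pard3WT days 2 and 7, Pard3HMKO day 7, and genotypes on days 2 and 7). DESeq2 moved 9: 3 for both deletions, 2 for YapHMKO with PD, 5 for culture Pard3HMKO, 7 for TPPB in YapWT, 2 for the PD effect by Yap, and 1 each in adults for Pard3WT day 2, Pard3HMKO day 7 and the genotypes on days 2 and 7. Over all genes DESeq2 called more than edgeR in every comparison. RLE factors gave 1 for both deletions. Library totals alone, added after the data were seen, gave 1 for YapHMKO at E17.5, 2 for both deletions, 2 at P0 and 1 for adult genotypes on day 2. With only the libraries compared, the values were 1 for YapHMKO at E17.5, 3 for both deletions, 3 at P0, 4 for P0 minus E19.5, 3 for PD in YapWT, 4 for U0126 in Pard3WT, 5 and 7 for TPPB in Pard3WT and YapWT, and 6 for adult Pard3HMKO day 2. With the replicate block, culture Pard3HMKO gave 1 in place of 2, and no other count moved; the numbers did not pair the libraries.

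Without cells holding markers of another type, counts were 0 at E17.5, with AlfpCre and at P14, 1 at E19.5, 1 for culture Pard3HMKO, 0 and 1 for PD in Pard3WT and YapWT, 0 and 0 for U0126, 2 for TPPB in YapWT, and 2 and 1 for adult Pard3WT and Pard3HMKO day 2; 7 of 42 comparisons had libraries with no other cells and could not be run. Without the erythroid list, an alternative added after the data were seen, they were 0 with AlfpCre, 3 at P0, 1 at P14, 1 for P0 minus E17.5, 1 for P14 minus P0, 1 for culture Pard3HMKO, 3 for PD in YapWT, 1 for the PD effect by Yap, and 2 and 1 for adult Pard3WT and Pard3HMKO day 2. Here Cyr61 reversed at P14 (−2.81, adjusted p = 0.349) and for P14 minus P0 (−1.14, adjusted p = 0.926). Without libraries under 15 cells they were 1 for culture against liver in YapWT, 2 for PD in YapWT, 2 for adult Pard3WT day 2, and 1 each for Pard3HMKO day 7 and the genotypes on days 2 and 7. ATAC regions that differed numbered 7, 6 and 7 with scores of at least 100 (culture Pard3HMKO, PD in Pard3WT, PD in Pard3HMKO) and 16, 10, 20, 26 and 15 within 50 kb (E17.5 Pard3HMKO, E17.5 YapHMKO, culture Pard3HMKO, PD in Pard3HMKO, TPPB).

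Leaving out 1 library left 2 to 3 calls for the wild-type slope, 0 to 2 at E17.5, 0 to 1 for both deletions, 0 to 1 with AlfpCre, 1 to 2 at E19.5, 1 to 3 at P0, 1 to 2 at P14, 1 to 1 for P0 against E19.5, 2 to 4 for P14 against P0, and 1 to 2, 1 to 2 and 2 to 3 for the differences between ages. In culture it left 3 to 6, 1 to 3 and 4 to 6 against liver, 0 to 1 for Pard3HMKO, 1 to 2, 1 to 4, 1 to 2 and 2 to 4 for PD, 1 to 1 and 1 to 3 for U0126, 0 to 2 and 1 to 4 for TPPB, 3 to 6 for TPPB with PD, and 0 to 2 for the PD effect by Yap and for YapHMKO with PD. In adults it left 0 to 1 for Pard3WT day 2, 0 to 2 for Pard3HMKO day 2, 0 to 1 for day 7 and 0 to 1 for genotypes on day 2; ATAC gave 8 to 12, 5 to 8, 15 to 17, 16 to 21, 13 to 20 and 19 to 22. Counting each call once per alternative, 586 values kept the call, 87 lost it and 2 reversed; counted once per library left out, 237 kept it and 159 lost it.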
